A study of Mus musculus with 8 samples.

Results

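Growth factor ligands and receptor tyrosine kinases were followed as 51 listed mouse genes from the FGF, PDGF, VEGF, ERBB, MET, TAM, neurotrophin, RET, KIT and CSF1R, DDR, ROR and TIE families, each ligand set beside its receptor. Every probe set (a group of short oligonucleotides on the array that reads 1 transcript) annotated to a single listed symbol was used, on all 8 arrays. Of the 51 genes, 49 had such a probe set, with 27 ligands, 21 receptors and the intracellular factor Fgf13, among 18193 genes read by the array. Areg and Ntf3 are not named in the annotation used here and have no value. Their 115 probe sets were scaled with all others so that each array had a 2% trimmed mean of 500, and 36 of the 49 genes (19 ligands and 17 receptors) passed the filter on low signals.

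The arrays compared mouse cells made to carry PGC7 with control cells of the same line. PGC7, also called Stella and encoded by Dppa3, is a protein of eggs and germ cells, known for shielding methylated DNA in the zygote. In NIH3T3, an embryonic fibroblast line, the groups were PGC7 (n = 3, namely clone 1, clone 2 and cells taken before cloning, which the series text calls a mixture of clones and which are called uncloned here) and control (n = 1). In B16F10, a melanoma line, they were PGC7 (n = 3, clones 1 to 3) and control (n = 1). Cells grew with 10% fetal bovine serum, and target cells were kept overnight in supernatant that held virus and polybrene, a compound that helps virus enter cells. The labels give neither the promoter of the transgene nor whether the controls received an empty virus. Groups were taken from the titles, since the genotype label writes PGC8 and pre-cloned for all 6 PGC7 arrays. Each clone descends from 1 cell, and each control is 1 array, so every change below rests on a single control in its line and on the assumption that it varied like the replicated arrays.

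Receptor tyrosine kinases are membrane proteins that bind a growth factor outside the cell, pair up and phosphorylate tyrosines inside it. Adaptors then bind those tyrosines and start the RAS and MAP kinase cascade and the PI3 kinase and AKT pathway, which drive growth, survival and movement. Fibroblasts are known as a source of ligands such as Hgf and Fgf7 that act on neighbouring epithelium, and as cells that answer PDGF and FGF. Melanocytes depend on Kit during development, and Met and Erbb3 are receptors known from melanoma.

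The lines matched their labels by markers, although the transgene itself did not stand out on the arrays. All 7 fibroblast markers were higher in NIH3T3 and all 8 melanocyte markers were higher in B16F10, and endothelial, macrophage and epithelial lists had 1 of 7, 4 of 7 and 3 of 6 genes past the filter. Dppa3 had signals between 29.7 and 100.7 in NIH3T3 PGC7 arrays, against 69.8 in NIH3T3 control, and between 70.0 and 117.3 in B16F10 PGC7 arrays, against 23.5 in B16F10 control, with limma adjusted p of 0.80 and 0.27. No source used here says whether its probe set reads the part carried by the virus. PGC7 below is therefore the label of an array and not a measured level. Correlations over the tested probe sets were 0.912 to 0.92 between NIH3T3 PGC7 arrays and their control, 0.962 to 0.978 among those PGC7 arrays, 0.970 to 0.977 between B16F10 PGC7 arrays and their control, and 0.679 to 0.698 between the lines. In NIH3T3 the fibroblast list differed between the groups, its summed signal being 70470 to 77360 in PGC7 arrays against 108700 in control, with Col1a1, Postn and Lum called lower. The part of this shift in the results below was not tested.

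In NIH3T3, 10 of the 36 tested members differed between PGC7 arrays and control. The ligands Gdnf, Ereg, Fgf2 and Kitl and the receptors Mertk, Tyro3 and Erbb3 were higher, and the ligands Fgf7, Nrg1 and Hgf were lower. Calls needed a Benjamini-Hochberg adjusted p below 0.05 in limma, fitted to log2(signal + 9) over all tested probe sets, with a gene's brightest probe set standing for it. In a bulk sample, fewer cells with a transcript and less of it per cell cannot be told apart. Among all 11623 tested genes 7.88% were called higher and 7.35% lower, against 7 and 3 of the 36 members. The median log2 change was 0.27 over the members and -0.04 over all genes. With the signals as deposited, unscaled, 4 of 34 tested members were higher, beside 3.9% of all genes, and 3 were lower, beside 6.41%, namely Fgf7, Hgf and Csf1. At the main setting the other 7 tested probe sets of called members all had the direction of the brightest one.

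**Figure D1:**
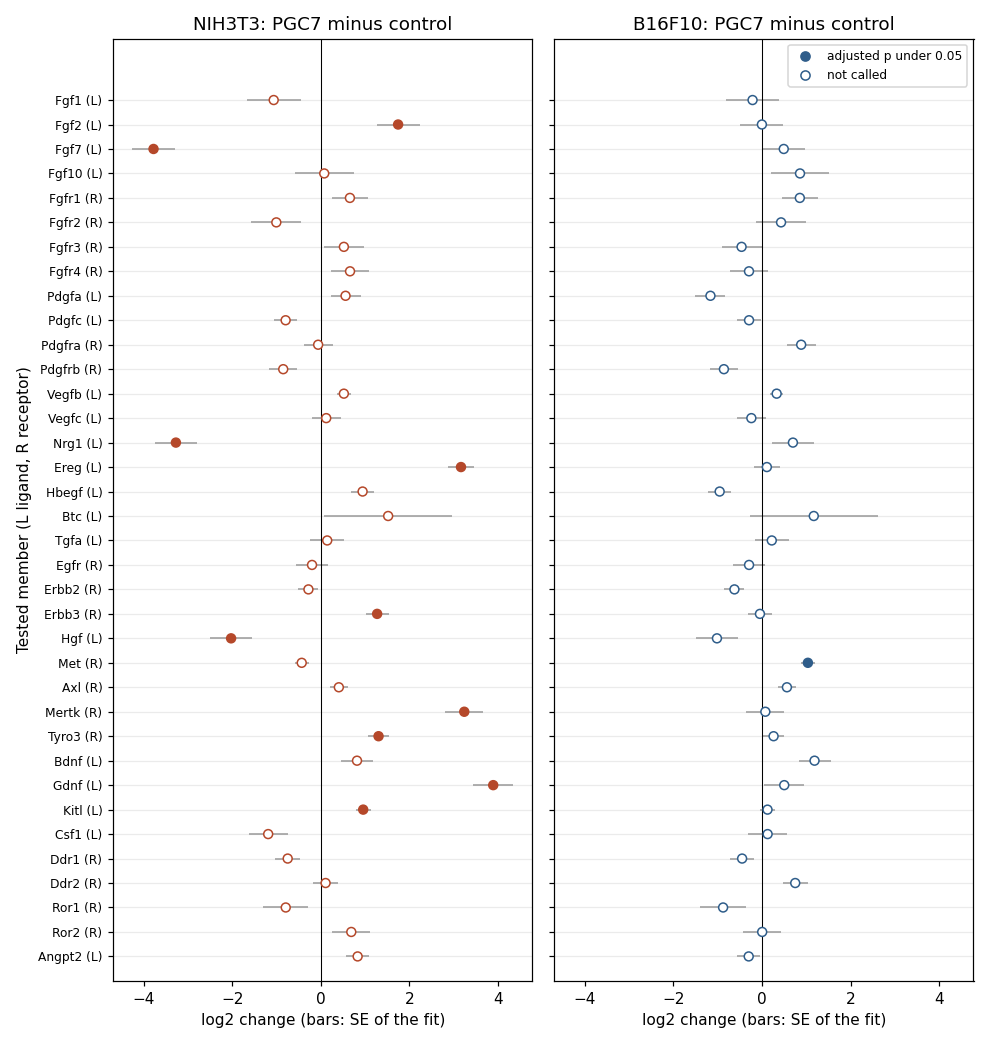
Log2 change, PGC7 minus control, of the 36 tested members in NIH3T3 (left) and B16F10 (right), as limma estimates with their standard errors. Filled points passed an adjusted p of 0.05, which holds for 10 members in NIH3T3 and for Met alone in B16F10.

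Gdnf (glial cell line-derived neurotrophic factor), which acts through the receptor Ret and a co-receptor of the GFRA family, had the largest change of any tested member in NIH3T3 on the log2(signal + 9) scale. Its signal was 2125, 2039 and 1610 in clone 1, clone 2 and uncloned PGC7 cells, against 120.2 in control. The 3 PGC7 arrays lay close together and far above the control, a log2 change of 3.89 ± 0.46 (SE, n = 3 against 1, limma adjusted p = 0.0013). Ret, its signalling receptor, was low and was not tested, with 15.1, 116.2 and 30.5 in PGC7 arrays and 17.9 in control, so that clone 2 alone stood above the rest. The co-receptor Gfra1, which holds Gdnf at the membrane, had 524.2, 465.0 and 197.6 in PGC7 arrays against 30.6 in control (log2 change 3.24, limma adjusted p = 0.016). Ligand and co-receptor were therefore both higher in every PGC7 array, while the kinase that they share had low signals in 3 of the 4 NIH3T3 arrays.

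Ereg (epiregulin), a ligand of Egfr and of Erbb4, was the ERBB ligand with the largest rise. It had 3820, 4191 and 5539 in PGC7 arrays against 489.3 in NIH3T3 control, a log2 change of 3.17 ± 0.30 (SE, limma adjusted p = 0.00055). Its receptor Egfr had 229.6, 234.1 and 221.6 in PGC7 arrays against 263.9 in control and was not called (log2 change -0.20, limma adjusted p = 0.76). Erbb2, the partner with no ligand of its own, had 413.4, 486.4 and 383.4 against 519.7 and was not called either. Hbegf, another Egfr ligand, had 786.2, 937.8 and 1130 in PGC7 arrays against 485.7 in control and just missed the threshold (log2 change 0.94 ± 0.26, SE, limma adjusted p = 0.052). Tgfa, also an Egfr ligand, had 86.5, 149.0 and 105.2 against 99.6, and its groups overlapped. In the mouse annotation Ereg lies on chromosome 5 in a run with Epgn, Areg and Btc, of which Epgn was low and not tested, with 26.9, 44.8 and 38.1 in PGC7 arrays against 12.5 in control.

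Kitl, the stem cell factor that binds Kit, and Fgf2, a basic fibroblast growth factor that binds FGF receptors and heparan sulphate, rose less. Kitl had 8831, 7965 and 7360 in PGC7 arrays against 4137 in NIH3T3 control (log2 change 0.96 ± 0.17, SE, limma adjusted p = 0.0083). Its other 3 probe sets had log2 changes of 1.20, 1.48 and 1.20 and did not pass the test. Its receptor Kit had signals under the array median in these cells, with 27.2, 27.2 and 1.57 against 28.1. Fgf2 had 90.4, 123.5 and 128.2 against 27.4 (log2 change 1.74 ± 0.48, SE, limma adjusted p = 0.0497), and its call was lost under 9 of the 15 other settings that tested it. The FGF receptors did not pass: Fgfr1 had 3489, 3522 and 2125 against 1881, with every PGC7 array above control (limma adjusted p = 0.32).

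Fgf7 (keratinocyte growth factor), which signals to epithelium through an isoform of Fgfr2, fell further than any other tested member in NIH3T3 on that scale. It had 232.6, 262.4 and 578.8 in clone 1, clone 2 and uncloned PGC7 cells, against 4640 in control (log2 change -3.78 ± 0.48, SE, limma adjusted p = 0.0019). A second probe set gave 376.6, 305.8 and 638.8 against 5636, a log2 change of -3.72 (limma adjusted p = 0.0015). Both probe sets thus put the uncloned cells between the clones and the control. Fgfr2 had 838.0, 929.4 and 299.6 in PGC7 arrays against 1250 in control and was not called (log2 change -1.01 ± 0.56, SE, limma adjusted p = 0.28). Fgf10, the other ligand of that isoform, had 168.4, 134.9 and 197.8 against 156.3, and its groups overlapped.

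Nrg1 (neuregulin 1), the ligand of Erbb3, fell while Erbb3 rose. Nrg1 had 25.1, 34.7 and 43.2 in PGC7 arrays against 404.9 in NIH3T3 control (log2 change -3.28 ± 0.47, SE, limma adjusted p = 0.0036), so that its PGC7 signals all lay below the median of all array values, 49.3. Erbb3, a receptor with a weak kinase that works in pairs with Erbb2, had 86.8, 143.2 and 100.7 against 39.5 (log2 change 1.27 ± 0.26, SE, limma adjusted p = 0.017). The control value of Erbb3 was itself under that median. Erbb3's call was lost under 2 of 17 other settings and that of Nrg1 under none of 15.

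Hgf (hepatocyte growth factor), the ligand of Met, was lower in every NIH3T3 PGC7 array. It had 86.1, 132.1 and 141.5 in PGC7 cells against 507.0 in control (log2 change -2.03 ± 0.48, SE, limma adjusted p = 0.029). Its second probe set fell by 2.97 on the log2 scale and passed (limma adjusted p = 0.037), and the third changed by -2.33 without passing (0.073). The call of the brightest was lost under 4 of 16 other settings, which included leaving out clone 1 or clone 2. Met had 1924, 1725 and 2152 against 2605 in control and was not called (log2 change -0.43 ± 0.16, SE, limma adjusted p = 0.11). Ligand and receptor thus both had their highest NIH3T3 value in control.

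Of the TAM receptors, which recognise dying cells and platelets through the bridging ligands Gas6 and Pros1, Mertk and Tyro3 were higher in NIH3T3 PGC7 arrays and Axl was not called. Mertk had 701.7, 1015 and 1678 in PGC7 arrays against 104.4 in control (log2 change 3.24 ± 0.43, SE, limma adjusted p = 0.0024). Tyro3 had 321.5, 350.5 and 431.9 against 142.7 (log2 change 1.30 ± 0.24, SE, limma adjusted p = 0.011), and its second probe set gave 1.05 (limma adjusted p = 0.037). The Tyro3 call was lost under 2 of 16 other settings. In both genes the uncloned cells were the highest array. Axl had 12010, 12550 and 10640 against 8839, every PGC7 array above control without passing the test (log2 change 0.40 ± 0.20, SE, limma adjusted p = 0.22). Gas6 was low and not tested, with 22.9, 4.15 and 4.89 against 8.56. Pros1, the other ligand, was lower, with 282.3, 336.5 and 208.6 in PGC7 arrays against 675.6 in control (log2 change -1.29, limma adjusted p = 0.019).

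**Figure D2:**
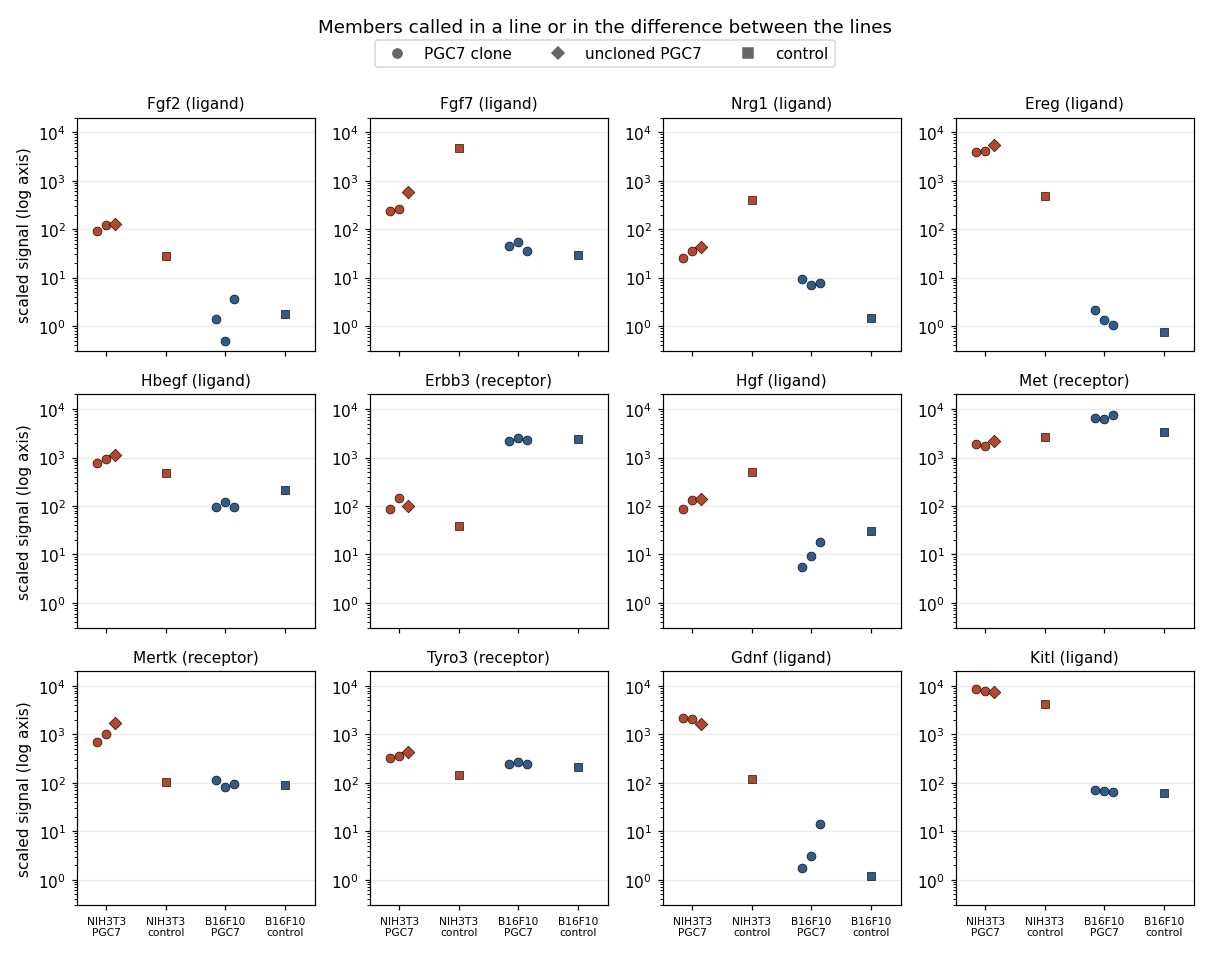
Scaled signal in each array, on a log axis, of the 12 members called in a line or in the difference between the lines, with PGC7 arrays left of control in each line. Circles are clones, diamonds the uncloned NIH3T3 cells and squares the single controls; for Gdnf the NIH3T3 PGC7 arrays lie between 1610 and 2125 and the control at 120.2.

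The 250 bases before the annotated start are printed for 4 of these genes whose signal changed in NIH3T3, because PGC7 is known as a factor that acts on methylation of CG pairs. The sequences come from RefSeq's mouse annotation of GRCm38.p6, 5′ to 3′ on the gene's strand, in lower case with every CG in capitals, and the arrays did not measure methylation. Gdnf has 2 annotated starts (chr15:7809798-7810047, + strand and chr15:7813477-7813726, + strand), Mertk lies at chr2:128698665-128698914, + strand, Tyro3 at chr2:119799264-119799513, + strand and Fgf7 at chr2:126034408-126034657, + strand.
Gdnf start 1: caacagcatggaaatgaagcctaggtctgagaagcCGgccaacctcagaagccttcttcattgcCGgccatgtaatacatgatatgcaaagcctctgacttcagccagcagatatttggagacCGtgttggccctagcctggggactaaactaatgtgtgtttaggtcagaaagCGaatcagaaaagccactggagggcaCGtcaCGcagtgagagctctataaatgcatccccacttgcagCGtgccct
Gdnf start 2: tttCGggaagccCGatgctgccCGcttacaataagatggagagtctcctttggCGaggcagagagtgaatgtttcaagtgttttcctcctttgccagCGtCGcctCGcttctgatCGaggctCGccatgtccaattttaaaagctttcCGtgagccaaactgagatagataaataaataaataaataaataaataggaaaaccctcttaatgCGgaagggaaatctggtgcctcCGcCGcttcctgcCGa
Mertk: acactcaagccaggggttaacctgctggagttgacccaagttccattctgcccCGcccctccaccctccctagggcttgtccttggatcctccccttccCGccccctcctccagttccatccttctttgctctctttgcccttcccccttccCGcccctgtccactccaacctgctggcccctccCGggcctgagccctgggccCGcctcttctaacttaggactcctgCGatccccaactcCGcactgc
Tyro3: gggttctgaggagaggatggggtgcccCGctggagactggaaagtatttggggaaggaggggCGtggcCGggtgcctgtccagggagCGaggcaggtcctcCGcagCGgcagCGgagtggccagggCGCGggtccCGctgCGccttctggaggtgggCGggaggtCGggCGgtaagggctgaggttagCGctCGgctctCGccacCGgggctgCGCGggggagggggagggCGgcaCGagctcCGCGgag
Fgf7: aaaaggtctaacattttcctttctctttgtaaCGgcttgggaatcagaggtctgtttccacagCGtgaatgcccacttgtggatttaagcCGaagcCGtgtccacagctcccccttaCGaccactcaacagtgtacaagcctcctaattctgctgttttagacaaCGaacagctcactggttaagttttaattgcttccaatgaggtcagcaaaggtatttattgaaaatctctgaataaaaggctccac

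These windows held 7 and 14 CG pairs for the Gdnf starts, 7 for Mertk, 24 for Tyro3 and 6 for Fgf7, against a median of 6 over 32851 promoter windows of the same length. Of all windows, 46.3% had at least 7 CG pairs, 29.4% at least 14, 12% at least 24 and 50.4% at least 6. Windows were found for 38 members, 54 windows in all with a median of 9.5 CG pairs. For members called in NIH3T3 the counts were 7 to 24 in 6 windows of 5 higher genes (Gdnf, Mertk, Tyro3, Kitl and Fgf2) and 4 to 6 in 3 windows of 2 lower genes (Fgf7 and Hgf). They were 1 to 34 in 32 windows of members not called and 2 to 37 in 13 windows of untested members, ranges that hold both. The motifs TGANTCA and CACGTG, each the same on both strands and the second sharing its CG with the count above, were in 0 of these 9 windows and in 6.75% and 6.02% of all windows.

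The remaining NIH3T3 members did not pass the test. Csf1, a growth factor for macrophages, had 3132, 2867 and 1265 in PGC7 arrays against 5149 in control (log2 change -1.19 ± 0.44, SE, limma adjusted p = 0.12), and only 1 of its 4 probe sets was called, at -2.25 (limma adjusted p = 0.0032). Its receptor Csf1r had 164.3, 155.2 and 119.9 against 162.6. The summed signal of the 7 macrophage markers was 890.1 to 1146 in PGC7 arrays and 569.9 in control, with Cd14 called higher and Itgam between 1.12 and 30.2 in PGC7 arrays, and its part in the Csf1 values was not tested. Ddr1, a collagen receptor, was not called by its brightest probe set (log2 change -0.75, limma adjusted p = 0.12), though 2 of its other probe sets fell, by 1.41 and 1.11 on the log2 scale (limma adjusted p = 0.020 and 0.024). Among PDGF members, Pdgfc had 2016, 1806 and 2526 against 3649 and Pdgfrb 3990, 4049 and 2267 against 6002, with every PGC7 array below control and adjusted p of 0.082 and 0.12 in limma. Pdgfra, the receptor of Pdgfa and Pdgfc, had 4882, 6596 and 8505 against 6784, and its groups overlapped. Vegfb had 1825, 2285 and 2040 against 1423 and Angpt2 had 387.8, 317.7 and 240.9 against 170.4, with every PGC7 array above control and adjusted p of 0.058 and 0.075 in limma.

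The uncloned NIH3T3 cells differed from the clones for several members. Btc (betacellulin), an Egfr and Erbb4 ligand, had 1767 in the uncloned cells, against 66.0 and 102.9 in clones 1 and 2 and 76.9 in control, and its second probe set gave 643.9 against 33.2, 16.5 and 34.1. This single array was far above the 3 others by both probe sets, and the gene was not called (log2 change 1.52 ± 1.44, SE, limma adjusted p = 0.54). The uncloned signal was at least 2-fold above both clones, on the log2(signal + 9) scale, for Btc and Fgf7, 2 of 36 members beside 1.65% of all tested genes, and at least 2-fold below both for Fgf1, Fgfr2 and Csf1, 3 of 36 beside 2.59%. Clones 1 and 2 were within 2-fold of each other for all 36 tested members. The same share over all tested genes was not computed, so this count is not read as a trait of the members. Without the uncloned array, 9 of 37 tested members were called higher, beside 13.4% of all genes: Gdnf, Ereg, Mertk, Tyro3, Erbb3, Kitl, Hbegf, Vegfb and Angpt2. In the same fit 7 were called lower, beside 14.5%: Fgf7, Nrg1, Hgf, Csf1, Met, Pdgfc and Pdgfrb.

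In B16F10 a single member was called, the receptor Met, and none was called lower. Met had 6565, 6231 and 7616 in clones 1, 2 and 3, against 3300 in control (log2 change 1.04 ± 0.16, SE, n = 3 against 1, limma adjusted p = 0.023). The share of all tested genes called was 1.18% higher and 0.387% lower, against 1 and 0 of the 36 members. An unadjusted limma p under 0.05 was found for 9 of the 36 members, beside 2092 of all 11623 tested genes. The second Met probe set gave 95.1, 72.5 and 118.0 against 26.8 (log2 change 1.52, limma adjusted p = 0.049). Both probe sets had every clone above control, but the call of the brightest was lost when any 1 B16F10 clone was left out and under 7 of 17 other settings in all. Hgf, the ligand of Met, had 5.40, 9.17 and 18.3 in the clones against 30.0, all below the array median.

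Other B16F10 members had every clone on 1 side of control without passing. Hbegf had 94.1, 122.7 and 96.6 in clones 1 to 3 against 210.0 in control (log2 change -0.96 ± 0.26, SE, limma adjusted p = 0.14). Pdgfa, a PDGF ligand, had 251.2, 326.7 and 269.1 against 640.3 (log2 change -1.17 ± 0.34, SE, limma adjusted p = 0.15), and Pdgfrb had 166.4, 218.4 and 166.9 against 338.6 (log2 change -0.86, limma adjusted p = 0.25). The second Pdgfrb probe set ran the other way, with 33.7, 24.9 and 50.9 against 6.62 (log2 change 1.5, limma adjusted p = 0.27), so Pdgfrb has no settled direction in B16F10. Without the uncloned NIH3T3 array, which shares the fit's spread, these 3 members were called lower by their brightest probe sets, beside 3.41% of all genes. Bdnf (brain-derived neurotrophic factor) had 37.7, 75.8 and 43.0 against 16.9 by its brightest probe set (log2 change 1.19, limma adjusted p = 0.17), and its second probe set passed with 57.9, 106.7 and 68.2 against 5.5 (log2 change 2.54, limma adjusted p = 0.014). Its receptor Ntrk2 had 51.2, 26.6 and 38.5 against 46.4. Kit, the receptor of Kitl, had 146.2, 206.8 and 159.6 against 13.6 and was not called (limma adjusted p = 0.093), while Kitl had 71.7, 68.1 and 65.2 against 61.9. The 3 B16F10 clones were within 2-fold of each other for 34 of the 36 members, and the same share over all tested genes was not computed.

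The change in NIH3T3 differed from that in B16F10, by the interaction term of the same fit, for 7 of the 36 members, beside 8.93% of all tested genes. The NIH3T3 change was the higher one for Gdnf (difference of log2 changes 3.39 ± 0.64, SE), Mertk (3.16 ± 0.61), Ereg (3.06 ± 0.42) and Hbegf (1.90 ± 0.37), and the lower one for Fgf7 (-4.27 ± 0.68), Nrg1 (-3.98 ± 0.67) and Met (-1.47 ± 0.22), with limma adjusted p between 0.0063 and 0.022. With poly-A spike scaling the Met difference shrank to -0.48 and was not called (limma adjusted p = 0.36). The difference call was lost for Mertk under 4, for Hbegf under 3 and for Gdnf under 2 of 16 other settings, among them leaving out B16F10 clone 3 for Mertk and Hbegf, clone 2 for Mertk, clone 1 for Hbegf and NIH3T3 clone 1 for Gdnf. Hbegf and Met lay on opposite sides of control in the 2 lines. Hbegf was above control in every NIH3T3 PGC7 array and below it in every B16F10 clone, and Met the other way round. The second Hbegf probe set gave a difference of 1.62 and was not called (limma adjusted p = 0.059). Csf1, Bdnf and Ddr1 were not called for the difference by their brightest probe sets. Another probe set of each was called, at -3.52, -2.07 and -1.64 (limma adjusted p of 0.0045, 0.038 and 0.032). The remaining tested probe sets of Csf1 and Ddr1 were not called. Mertk had 114.2, 80.6 and 94.9 in B16F10 clones against 90.4 in control, and Ereg at most 2.18 in any B16F10 array. For Tyro3, Erbb3, Kitl, Fgf2 and Hgf, called in NIH3T3, the difference between the lines did not pass, with limma adjusted p of 0.11, 0.073, 0.074, 0.17 and 0.43.

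Most of the tested members differed between the 2 lines. Of the 36 tested members 27 were higher in NIH3T3 and 7 higher in B16F10, beside 37.8% and 35% of all tested genes, over the PGC7 and control arrays of each line taken with equal weight. A member could pass the filter through 1 line alone, so these counts describe the genes that passed. With the signals as deposited, whose NIH3T3 trimmed means were 143 to 189 against 500 in B16F10, the counts were 17 and 11 of 34 members, beside 9.78% and 77.6% of all genes tested at that setting. The sample titles name no array batch, so any batch that went with the line cannot be told apart from it here.

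**Figure D3:**
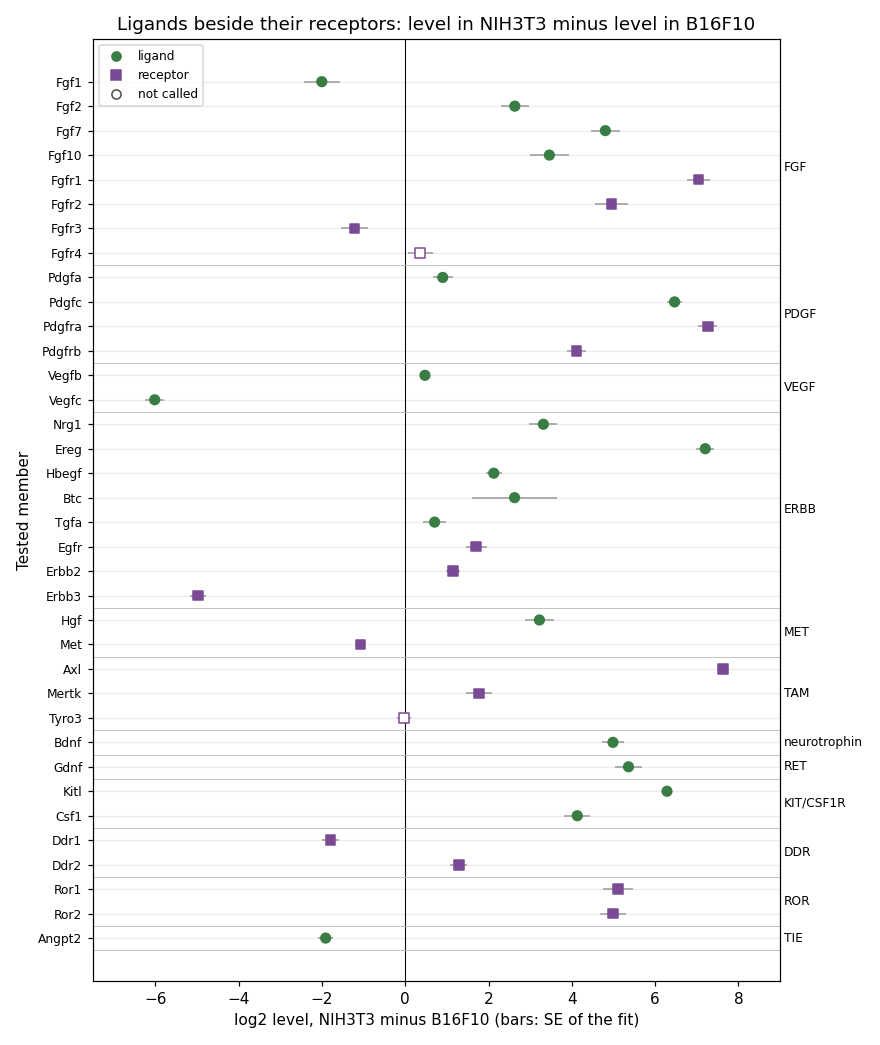
Log2 level in NIH3T3 minus B16F10 for the 36 tested members, as limma estimates with standard errors, grouped by family with ligands as circles and receptors as squares. Open symbols were not called; Axl at 7.63 and Vegfc at -6.02 mark the ends.

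All 4 tested PDGF members, 2 ligands and 2 receptors, were called higher in NIH3T3, beside 37.8% of all tested genes. Pdgfra had 4882 to 8505 in NIH3T3 and 22.9 to 67.6 in B16F10 (log2 difference 7.26 ± 0.23, SE, limma adjusted p = 6.2e-08), and Pdgfrb 2267 to 6002 against 166.4 to 338.6. Pdgfc, a ligand of Pdgfra, had 1806 to 3649 in NIH3T3 and 16.4 to 25.7 in B16F10 (log2 difference 6.47). Pdgfa was closer, at 658.3 to 1378 against 251.2 to 640.3, and turned to -0.62 on the log2 scale with the signals as deposited. Pdgfb, which binds both receptors, and Pdgfd, a ligand of Pdgfrb, were not tested, and their signals overlapped between the lines (25.7 to 47.4 in NIH3T3 and 13.7 to 41.4 in B16F10 for Pdgfb, 1.80 to 28.2 and 1.32 to 15.7 for Pdgfd).

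FGF receptors divided between the lines. Fgfr1 had 1881 to 3522 in NIH3T3 and 4.36 to 23.9 in B16F10 (log2 difference 7.04 ± 0.28, SE, limma adjusted p = 1.8e-07), and Fgfr2 299.6 to 1250 against 15.7 to 26.1. Fgfr3 went the other way, with 51.3 to 106.9 in NIH3T3 and 99.7 to 188.1 in B16F10 (log2 difference -1.22, limma adjusted p = 0.0080), although the lowest B16F10 array lay within the NIH3T3 range. Fgf1, a ligand of all FGF receptors, likewise had 4.33 to 43.7 in NIH3T3 against 107.2 to 148.4 in B16F10 (log2 difference -2.01, limma adjusted p = 0.0028). Fgf2, Fgf7 and Fgf10 were higher in NIH3T3, by 2.63, 4.81 and 3.46 on the log2 scale.

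In the ERBB family the ligands Ereg, Nrg1 and Hbegf were higher in NIH3T3 and the receptor Erbb3 was higher in B16F10. Ereg had 489.3 to 5539 in NIH3T3 and 0.74 to 2.18 in B16F10 (log2 difference 7.21 ± 0.21, SE, limma adjusted p = 4.1e-08), and Nrg1 25.1 to 404.9 against 1.47 to 9.19. Erbb3 had 39.5 to 143.2 in NIH3T3 and 2197 to 2542 in B16F10 (log2 difference -4.98 ± 0.19, SE, limma adjusted p = 1.3e-07). Egfr was higher in NIH3T3, at 221.6 to 263.9 against 43.0 to 82.9. Tgfa and Btc were also called higher in NIH3T3 (0.70 and 2.63), but the Btc call was lost under 9 of 15 other settings, and that of Tgfa was lost under 8 and reversed under 2 of 15. Another Tgfa probe set was called higher in B16F10, with 2.34 to 31.3 in NIH3T3 and 113.5 to 146.6 in B16F10 (log2 difference -2.20, limma adjusted p = 0.0025). Every B16F10 array had more Erbb3 and less Nrg1 signal than any NIH3T3 array.

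The ligands Kitl, Hgf and Gdnf were called higher in NIH3T3 and Vegfc was called higher in B16F10. Kitl had 4137 to 8831 in NIH3T3 and 61.9 to 71.7 in B16F10 (log2 difference 6.29). Its receptor Kit had 1.57 to 28.1 in NIH3T3 and 13.6 to 206.8 in B16F10, ranges that overlap, and was not called (log2 difference -1.09, limma adjusted p = 0.076). Hgf had 86.1 to 507.0 in NIH3T3 and 5.40 to 30.0 in B16F10 (log2 difference 3.22), while Met had 1725 to 2605 in NIH3T3 and 3300 to 7616 in B16F10 by its brightest probe set (log2 difference -1.08). The second Met probe set ran against this, with 649.0 to 879.1 in NIH3T3 and 26.8 to 118.0 in B16F10, and the mean over both gave 1.31, so the direction of Met between the lines depends on the probe set. Gdnf was higher in NIH3T3 by 5.36 on the log2 scale, with Ret low in both lines. Vegfc, which signals through Flt4 to lymphatic endothelium, had 1.13 to 3.06 in NIH3T3 and 602.9 to 749.1 in B16F10 (log2 difference -6.02 ± 0.23, SE, limma adjusted p = 1.5e-07). Flt4 had 7.2 to 33.9 in NIH3T3 and 26.9 to 136.0 in B16F10, and was not called between the lines (limma adjusted p = 0.053). Its B16F10 clones had 100.4, 96.7 and 136.0 against 26.9 in control, also not called (log2 change 1.73, limma adjusted p = 0.19).

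On the log2(signal + 9) scale Axl had the widest gap among tested members, an order that the added 9 sets, since Ereg reached 9.48 under another setting and Axl at most 7.87. Axl had 8839 to 12550 in NIH3T3 and 33.4 to 64.4 in B16F10 (log2 difference 7.63 ± 0.14, SE, limma adjusted p = 4.7e-09). Its relative Tyro3 was not called between the lines by its brightest probe set, with 142.7 to 431.9 in NIH3T3 and 212.4 to 274.2 in B16F10. The second Tyro3 probe set was called higher in NIH3T3, with 237.7 to 526.1 against 86.6 to 124 (log2 difference 1.74, limma adjusted p = 5.3e-05). Mertk had 104.4 to 1678 in NIH3T3 and 80.6 to 114.2 in B16F10, and its NIH3T3 control of 104.4 lay within the B16F10 range. The arrays above the B16F10 range were the 3 NIH3T3 PGC7 arrays. The WNT receptors Ror1 and Ror2 were higher in NIH3T3 by 5.12 and 4.99 on the log2 scale, with no B16F10 array above 11.8. The collagen receptors split, Ddr2 being higher in NIH3T3 (log2 difference 1.28) and Ddr1 in B16F10 (-1.80), although the mean over the Ddr1 probe sets gave 0.11. The brightest probe sets of Ddr1, Vegfc and Fgfr4 are of a type (x_at) that may also bind related transcripts. Angpt2, a ligand of the TIE receptor Tek, had 170.4 to 387.8 in NIH3T3 and 716.8 to 989.9 in B16F10 (log2 difference -1.91).

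**Figure D4:**
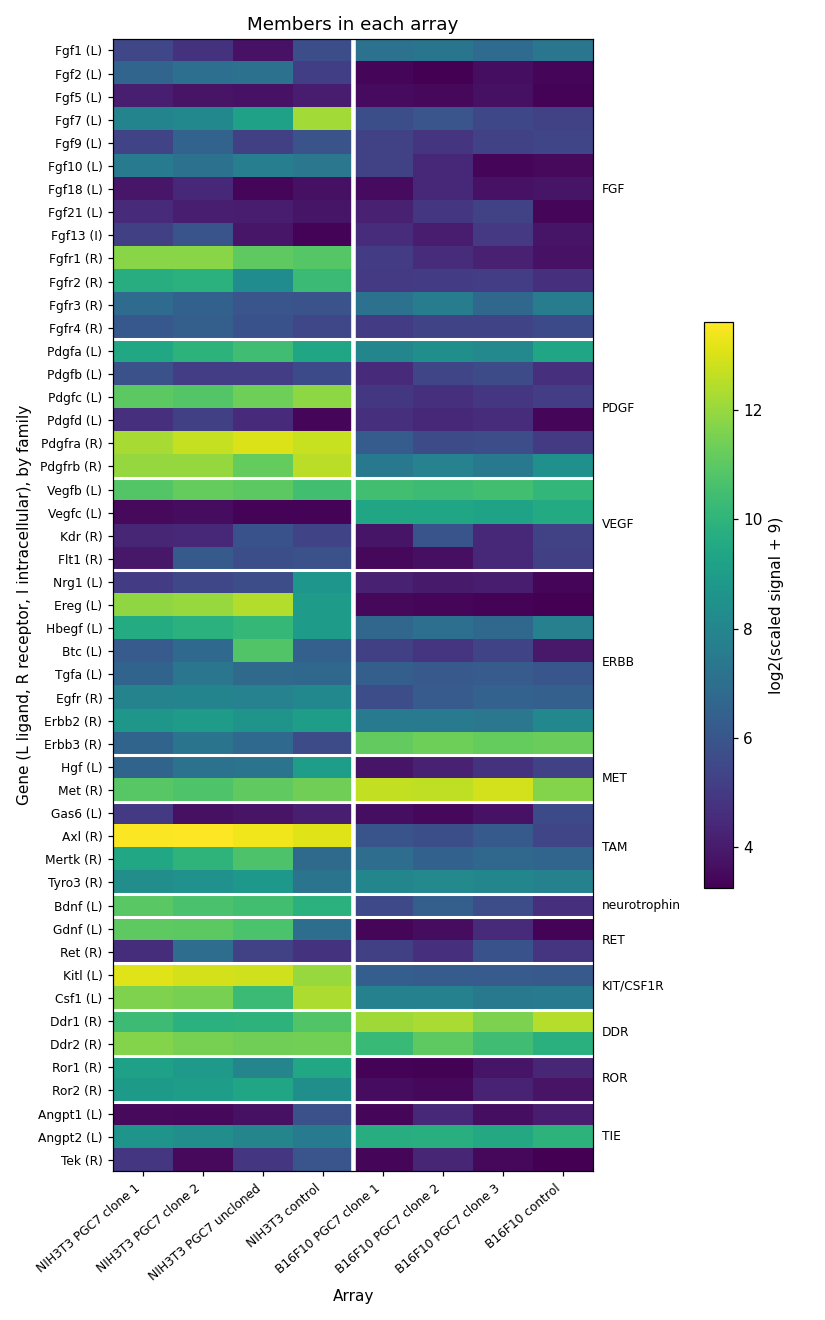
Log2(scaled signal + 9) of the 49 members in each of the 8 arrays, PGC7 arrays left of the control in each line, ordered by family with ligands before receptors. Colour is to be read along a row, since probe sets of different genes are not on 1 scale; Btc shows its single high array, uncloned NIH3T3 cells at 1767.

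The other 13 members were removed as low in both lines: the ligands Fgf5, Fgf9, Fgf18, Fgf21, Pdgfb, Pdgfd, Gas6 and Angpt1, the intracellular Fgf13, and the receptors Kdr, Flt1, Ret and Tek. Their 104 values, from the brightest probe set of each, ran from 0.65 to 116.2 with a median of 12.9, and 7 of them were above the median of all array values. Kdr, Flt1 and Tek are receptors of endothelial cells, whose 7 markers summed to 149.1 to 200.5 in NIH3T3 PGC7 arrays, 159.1 in NIH3T3 control, 100.0 to 152.0 in B16F10 PGC7 arrays and 53.9 in B16F10 control, with Pecam1 at 10.1 or less in every array. Another Flt1 probe set, also removed as low, had 63.3, 80.7 and 85.8 in NIH3T3 PGC7 arrays against 2.63 in control, with every PGC7 array above control. Angpt1 had 2.30, 2.08 and 4.22 in NIH3T3 PGC7 arrays against 47.1 in control, and was called lower only when no filter was used.

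The wider pathway was described with 5 lists of genes outside the members. They were written with earlier results of these data known, so their counts describe the lists and are no test. Of all tested genes, 7.88% were called higher and 7.35% lower in NIH3T3, and 1.18% and 0.387% in B16F10. Of 10 tested other ligands, 2 were higher and 1 was lower in NIH3T3: Il34, a second ligand of Csf1r, had 505.2, 533.4 and 948.2 in PGC7 arrays against 93.5 in control (log2 change 2.65), Vegfa changed by 1.32 and Pros1 by -1.29. Vegfa, the main ligand of Kdr, was also the 1 other ligand called in B16F10, with 1152, 771.9 and 1234 in clones against 280.7 in control (log2 change 1.85, limma adjusted p = 0.019). Of 10 tested other receptors, the decoy FGF receptor Fgfrl1 was higher in NIH3T3 (1.20) and Ryk and Styk1 were lower (-0.79 and -3.0). In B16F10 0 of these receptors were called by limma. There 3 of the 10 had an unadjusted limma p under 0.05, beside 2092 of all 11623 tested genes.

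Genes of the feedback inhibitor list, which are switched on by the MAP kinase cascade or dampen it, were mostly higher in NIH3T3 PGC7 arrays. The list was written with earlier results of these data known, so its counts and median describe it and are no test. Of 25 tested, 14 were called higher and 2 lower, beside 7.88% and 7.35% of all tested genes. The median log2 change was 1.09 against -0.04 over all genes. The difference between the lines was called for 11, beside 8.93% of all tested genes. The ERK phosphatase Dusp4 had 2968, 2983 and 2340 in PGC7 arrays against 89.9 in control (log2 change 4.80, limma adjusted p = 7.1e-06), and Dusp6 had 5658, 5592 and 6523 against 1070 (2.46). Errfi1, an inhibitor of Egfr kinase, had 3766, 4512 and 9790 against 985.1 (2.47). A link to the rise of the Egfr ligand Ereg was not tested, and Egfr itself was not called. Flrt3 and Ptprj, also on this list, rose (3.65 and 2.92), while Il17rd, an inhibitor of FGF signalling, fell by 3.57 on the log2 scale. A place on the list does not make a gene an inhibitor, and Flrt3 is not called one here. In B16F10 0 of the 25 were called by limma, beside 1.18% of all tested genes higher and 0.387% lower. There 5 of the 25 had an unadjusted limma p under 0.05, beside 2092 of all 11623 tested genes, and the list's median was 0.03.

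Co-receptors and heparan sulphate enzymes help ligands reach their receptors, and adaptors and kinases carry the signal inside the cell. Of 17 tested co-receptor genes 3 were higher and 2 lower in NIH3T3, beside 7.88% and 7.35% of all tested genes. The glypican Gpc1, which carries heparan sulphate for FGF binding, had 8020, 8260 and 7899 in PGC7 arrays against 1659 in control (log2 change 2.27). Nrp1, a co-receptor of VEGF, had 389.5, 428.6 and 391.7 against 4798 (-3.55). In B16F10 the heparan sulphate sulphotransferase Hs3st1 was the 1 called, with 238.0, 144.6 and 226.0 in clones against 22 in control (log2 change 2.74, limma adjusted p = 0.023). Of 32 adaptors and kinases, 5 were higher and 3 lower in NIH3T3, beside the same 7.88% and 7.35%. Among them were Gab2 (1.34), Pik3cb (1.09), Map2k1 (0.94), Braf (-0.82) and the RAS exchange factor Rasgrp3 (-3.78). In B16F10 0 were called by limma, beside 1.18% of all tested genes higher and 0.387% lower. There 5 of the 32 had an unadjusted limma p under 0.05, beside 2092 of all 11623 tested genes.

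**Figure D5:**
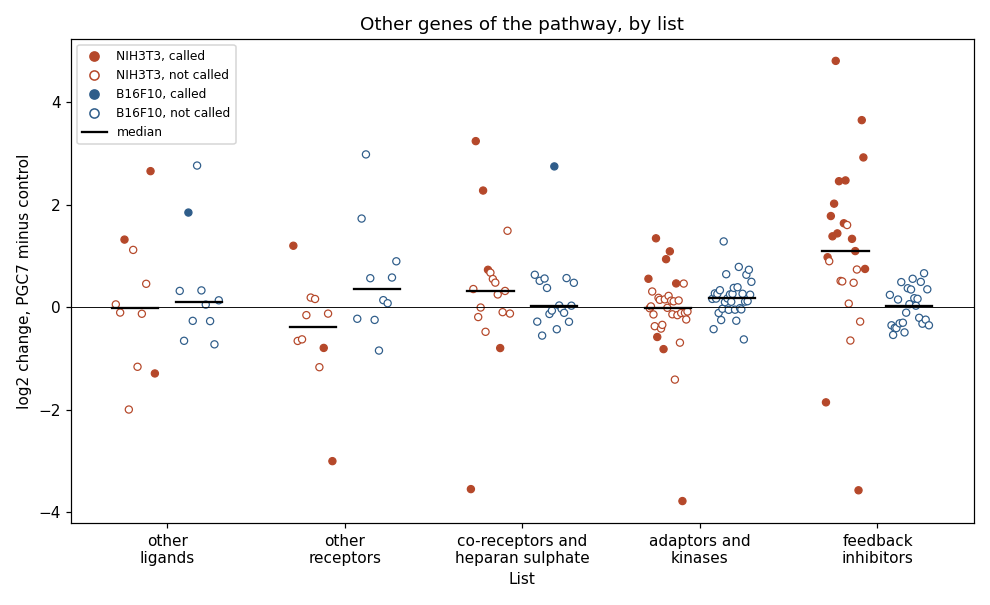
Log2 change, PGC7 minus control, of every tested gene of 5 pathway lists in NIH3T3 (orange) and B16F10 (blue), filled where called, with the list's median as a bar. The feedback inhibitors have a median of 1.09 in NIH3T3 and 0.03 in B16F10. The lists were written with earlier results of these data known.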

How the data were processed

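Expression was measured on 8 mouse Affymetrix arrays. The deposited values are MAS5 intensity signals per probe set, per the submitters' processing notes and the values, and no source used here gives the settings. Each array was scaled to a 2% trimmed mean of 500, and log2(signal + 9) was fitted with limma 3.58.1 (R 4.3.3; eBayes with an intensity trend) to the means of the 4 groups. Probe sets with a mean log2 value at or above the median of all values (signal 49.3) in a line were tested, 25236 of 45101, with Benjamini-Hochberg adjustment over all of them. A gene's brightest probe set stood for it. Probe sets were named by the platform annotation: 34945 had 1 symbol, 932 several and 9160 none, besides 64 control probe sets. Symbols are old and were updated through RefSeq where possible. Members called in a line or in the difference, and their partners, are given in every array; list genes are named where called, at most 6 a list and line. Members and lists were chosen with earlier results of these data known. The series text calls the clones independent. The uncloned NIH3T3 array, a mixture of clones, is not such a clone but entered the fit as a replicate. The p-values measure the spread between the PGC7 arrays, to which the single controls add nothing. The number of arrays limits the precision. The fit was tested on simulated data. Other scalings, filters, pseudocounts, fits and left-out arrays are in the closing section.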

Additional observations from a re-analysis of the deposited data

Results flagged for a closer look

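For 7 members, by their brightest probe sets, the PGC7 change in NIH3T3 differed from that in B16F10 by limma's interaction term. Calls needed an adjusted p under 0.05 over all tested probe sets. The difference, NIH3T3 change minus B16F10 change on the log2 scale, was 3.39 for Gdnf, 3.16 for Mertk, 3.06 for Ereg, 1.90 for Hbegf, -4.27 for Fgf7, -3.98 for Nrg1 and -1.47 for Met. Gdnf, Ereg, Nrg1 and Fgf7 had low signals in all 4 B16F10 arrays, at most 54.3, so their B16F10 changes are measured near the bottom of the scale. By their brightest probe sets Hbegf had signals of 94.1 or more, and Met of 1725 or more, in every array of both lines. The second Hbegf probe set gave a difference of 1.62 and was not called (limma adjusted p = 0.059). The second Met probe set gave -1.86 and was called (limma adjusted p = 0.031), with 26.8 to 118 in B16F10. By its brightest probe set the Met difference was -0.48 and not called with poly-A spike scaling. In each line the difference rests on 1 control array.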

How the results depend on the processing

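Settings other than the reported one changed no direction of a PGC7 change among called members. Gdnf, Ereg, Fgf7, Mertk and Kitl kept their NIH3T3 call under all 17 alternatives, and over the 10 called members 147 of 164 alternative values kept the call and 17 lost it. Members called higher in NIH3T3 numbered 4 both with deposited signals and with the line's arrays alone (3.9% and 4.22% of all genes), against 7, and 6 to 9 under the other settings. Those called lower numbered 1 under the stricter filter (8.86% of all genes), and 2 to 7 when 1 PGC7 array was left out, 7 without the uncloned array, against 3. In B16F10 the 1 higher member became 0 with deposited signals, poly-A spike scaling or no intensity trend, 2 with the mean of a gene's probe sets, and 0 to 1 with 1 array left out. The 0 lower members became 5 of 36 with spike scaling (13.1% of all genes), 2 of 23 with the line's arrays alone (6.35%) and 0 to 3 with 1 array left out. Differences with the NIH3T3 change above numbered 2 of 34 with deposited signals (1.54% of all genes), 10 of 36 with spikes (26.5%) and 2 to 8 with 1 array left out, against 4. Those below numbered 2 to 4, against 3, and were Fgf7 and Nrg1 without Met under spikes. Spike scaling moved the median change of all probe sets to 0.25 in NIH3T3 and -0.59 in B16F10, and deposited signals to -0.19 and 0.01, against -0.07 and 0.02. Between the lines, deposited signals gave 17 members higher in NIH3T3 and 11 in B16F10 (9.78% and 77.6% of all genes), against 27 and 7, and turned Pdgfa (-0.62), Vegfb (-1.07), Erbb2 (-0.35), Ddr2 (-0.26), Fgfr4 (-0.79) and Tgfa (-0.64) towards B16F10. The mean of a gene's probe sets turned Met (1.31), Ddr1 (0.11), Tyro3 (0.86) and Tgfa (-0.75). The cause of these changes was not tested. No paired analysis was possible because the controls carry no replicate number and a clone's number names it only within its line. Signals under the median of 49.3 limit every fold change that starts or ends there.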
